A study of Oryctolagus cuniculus with 16 samples.

Results

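The genes *SLC2A1*, *HK2*, *PFKFB3*, *ALDOA*, *PGK1*, *ENO1*, *LDHA*, *PDK1*, *CA9* and *BNIP3* carry glucose into the cell, break it down to lactate, or belong to the standard targets of the hypoxia-inducible factors. They were taken by gene symbol from the deposited table of read counts, which lists all 10 among its 20255 genes, and all 10 passed the low-count filter. Their RNA was compared between the femoral heads of 5 Perthes rabbits and 3 control rabbits. Perthes rabbits were wild-type animals operated on at 8 weeks of age, in which the femoral neck was ligated and the ligamentum teres transected to stop the blood supply of the epiphysis. The labels carry this condition as a genotype, Perthes' disease, although it was made by surgery. Control rabbits are labelled wild type (WT), and whether they had a sham operation, their age, and the time from surgery to sampling are not given in the sources used here. Each library was made from 5 μg of total RNA of a femoral head, after removal of ribosomal RNA.

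Glycolysis splits glucose into pyruvate in the cytosol without using oxygen. When oxygen is scarce, the hypoxia-inducible factors are no longer degraded and switch on genes for glucose uptake, most glycolytic enzymes and lactate production. Other targets encode a kinase that holds back the use of pyruvate in the mitochondrion and an enzyme that handles the resulting acid. Chondrocytes rely largely on glycolysis, whereas the marrow of the femoral head holds red cell and white cell precursors that use other isozymes of the same enzymes.

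The libraries held 26757087 to 29461482 counts, and levels below are counts scaled to a common library size by the TMM method of edgeR (CPM), which compare rabbits for a gene but not one gene with another, which would need transcript lengths. In a principal component analysis, controls scored 49.0 to 97.0 on the first component (56.1% of the variance). Perthes rabbits scored -93.7 to 5.21 there, with rabbit 2 nearest the controls. Perthes rabbit 4 scored -78.4 on the second component (13.1% of the variance), where the scores of all others were -7.51 to 27.5. Markers of bone and cartilage were present in every library, with summed levels of 46308 to 145643 CPM for 8 osteoblast genes and 35221 to 142860 CPM for 8 chondrocyte genes. Most of each sum was 1 collagen gene, *COL1A1* at 44666 to 143897 CPM and *COL2A1* at 29008 to 116594 CPM. The chondrocyte marker *MATN1* was near absent, at 0 to 0.214 CPM. Skeletal muscle was near absent, as 7 listed markers summed to 0.786 to 22.7 CPM. Summed levels of 10 red cell precursor markers were 34.3 to 2405 CPM in Perthes rabbits against 5164 to 5797 CPM in controls, and those of 9 neutrophil markers were 26.5 to 1548 against 5832 to 19106 CPM. The 8 macrophage markers summed to 836 to 7413 CPM in Perthes rabbits, with rabbit 4 the lowest, and to 456 to 615 CPM in controls. In every Perthes rabbit but rabbit 4, most of this sum was *GPNMB*. Its mean was 3644 CPM in Perthes rabbits, with 314 CPM in rabbit 4, and 19.61 CPM in controls. Only 3 of the 8 macrophage markers, *CD68*, *CSF1R* and *GPNMB*, had groups that did not overlap. In whole tissue, fewer cells of a type and less RNA per cell cannot be told apart.

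Of the 10 genes, 8 had a higher fitted level in Perthes rabbits and 2 a lower one, with a median log2 fold change of 0.82 beside 0.02 over all 15305 genes tested. None of the 10 passed an adjusted p below 0.05 in edgeR's quasi-likelihood test, where 6.21% of all genes were called higher and 8.86% lower in Perthes rabbits. With a log2 fold change beyond 1 also required, the count was again 0, against 4.21% of all genes higher and 6.72% lower. At an unadjusted p below 0.05, edgeR had 6 of the 10 higher and 0 lower, against 15.3% and 16.6% of all genes, but without control rabbit 2 it had 0 of the 10. DESeq2 called 4 of the 10 higher (*CA9*, *ENO1*, *SLC2A1* and *BNIP3*) and 0 lower, with 9.74% and 11.0% of all genes called. The groups did not overlap in 3 of the 10, *ENO1*, *LDHA* and *BNIP3*, all of them higher in Perthes rabbits, and 11.2% of all genes were separated in that direction. Scaling by library totals alone, which moved the share of lower calls over all genes from 58.8% to 71.5%, left the directions of all 10 as they were.

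**Figure D1:**
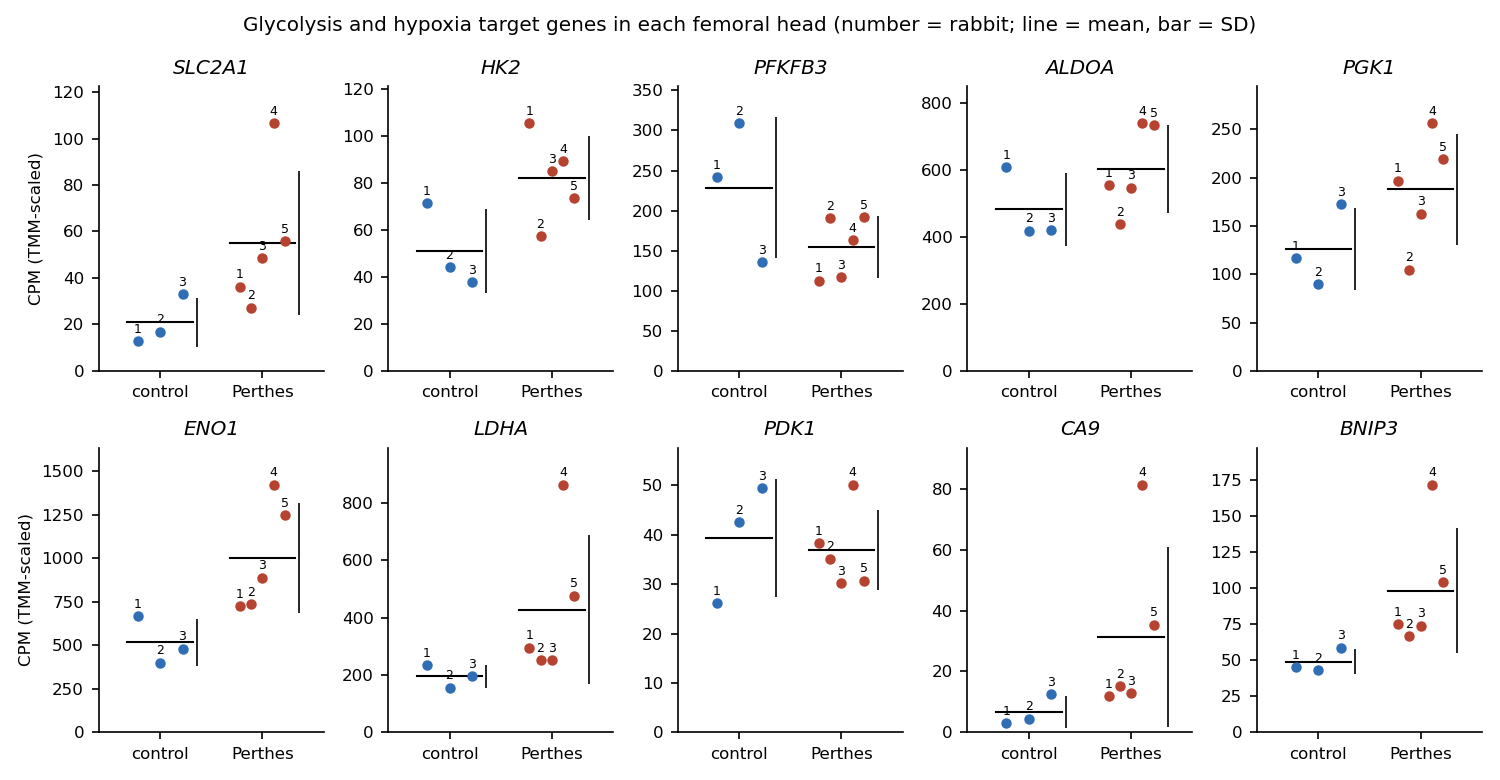
TMM-scaled CPM (vertical axes, from 0) of each of the 10 genes in 3 control and 5 Perthes femoral heads; each point is a rabbit with its number, lines are group means and bars the SD. The groups are apart for *ENO1*, *LDHA* and *BNIP3*, and Perthes rabbit 4 is the highest point for 8 of the 10 genes.

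Glucose entry is the first step. *SLC2A1* (gene 100125988) encodes GLUT1, the carrier that brings glucose into most cells at rest. Its level was 36.2, 27.2, 48.6, 107 and 55.9 CPM in Perthes rabbits 1 to 5 and 12.9, 16.8 and 33.0 CPM in control rabbits 1 to 3. In this gene 4 Perthes rabbits lay above all controls and only rabbit 2 lay within the control range. The means were 54.9 ± 30.9 CPM (SD, n = 5) and 20.9 ± 10.7 CPM (SD, n = 3), with a log2 fold change of 1.39 ± 0.48 (SE, edgeR adjusted p = 0.0814). Without Perthes rabbit 2 this value was 1.56 and its adjusted p in edgeR 0.0477. The edgeR adjusted p stayed above 0.05 in the other 7 fits that left out 1 rabbit, reaching 0.239 without control rabbit 1.

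*HK2* (100338214), a hexokinase that traps glucose by phosphorylation and is the inducible form in many tissues, had 105, 57.3, 85.0, 89.3 and 73.3 CPM in Perthes rabbits and 71.2, 44.0 and 37.8 CPM in controls. Here too Perthes rabbit 2 alone overlapped, and rabbit 1 was the highest. The log2 fold change was 0.69 ± 0.26 (SE, edgeR adjusted p = 0.110).

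*PFKFB3* (100350534) makes and degrades fructose 2,6-bisphosphate, which speeds the committed step of glycolysis. It was the gene with the largest difference toward the controls, with 112, 190, 117, 163 and 192 CPM in Perthes rabbits and 242, 309 and 135 CPM in controls. Perthes rabbits 1 and 3 lay below all controls, and the other 3 lay between control rabbit 3 and control rabbit 1. Its log2 fold change was -0.56 ± 0.30 (SE, edgeR adjusted p = 0.226). The identity of this entry is less sure than that of the others, because RefSeq, on the assembly mOryCun1.1, lists its identifier as LOC100350534 and gives the symbol *PFKFB3* to a different gene.

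The middle and lower part of the pathway was measured by 3 enzymes. Aldolase A, encoded by *ALDOA* (100009055), cleaves fructose 1,6-bisphosphate, and its level overlapped widely between the groups, with 554, 438, 547, 740 and 735 CPM in Perthes rabbits and 608, 419 and 420 CPM in controls. Its log2 fold change of 0.32 ± 0.24 (SE, edgeR adjusted p = 0.397) was the smallest among the 8 genes with a higher fitted level.

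Enolase 1 (*ENO1*, 100352426) makes phosphoenolpyruvate near the end of the pathway. It was at 724, 735, 888, 1422 and 1246 CPM in Perthes rabbits and at 668, 401 and 480 CPM in controls. Every Perthes rabbit was above every control, although Perthes rabbit 1 and control rabbit 1 were close. The means were 1003 ± 315 CPM (SD, n = 5) and 516 ± 137 CPM (SD, n = 3), and the fitted log2 difference was 0.96 ± 0.31 (SE, edgeR adjusted p = 0.0661).

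Phosphoglycerate kinase 1 (*PGK1*, 100343505) forms the first ATP of the pathway. As listed, it had 197, 105, 163, 256 and 219 CPM in Perthes rabbits and 117, 89.7 and 173 CPM in controls, with a log2 fold change of 0.57 ± 0.32 (SE, edgeR adjusted p = 0.246). These expected counts are not whole numbers in any library. In all 8 libraries they added up, within 0.02, to a whole number together with those of LOC100348124, a gene with the same description in the table, as counts of shared reads would. The share placed on *PGK1* was 34.4% to 49.8% in Perthes rabbits and 41.4%, 51.0% and 69.6% in control rabbits 1 to 3.

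Control rabbit 3, the highest control for *PGK1*, was thus also the library with the largest share of reads given to that entry. The sum of both genes was 425, 305, 327, 607 and 567 CPM in Perthes rabbits and 281, 176 and 248 CPM in controls, so that the groups no longer overlapped. For the sum, the log2 fold change was 0.92 ± 0.30 (SE, edgeR adjusted p = 0.0639), a choice made after the values were seen. LOC100348124 alone had 228, 200, 164, 351 and 348 CPM in Perthes rabbits and 165, 86.2 and 75.4 CPM in controls. It was called higher at a log2 fold change of 1.25 ± 0.36 (SE, edgeR adjusted p = 0.0479). Which of both genes a read came from cannot be told from these counts.

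**Figure D2:**
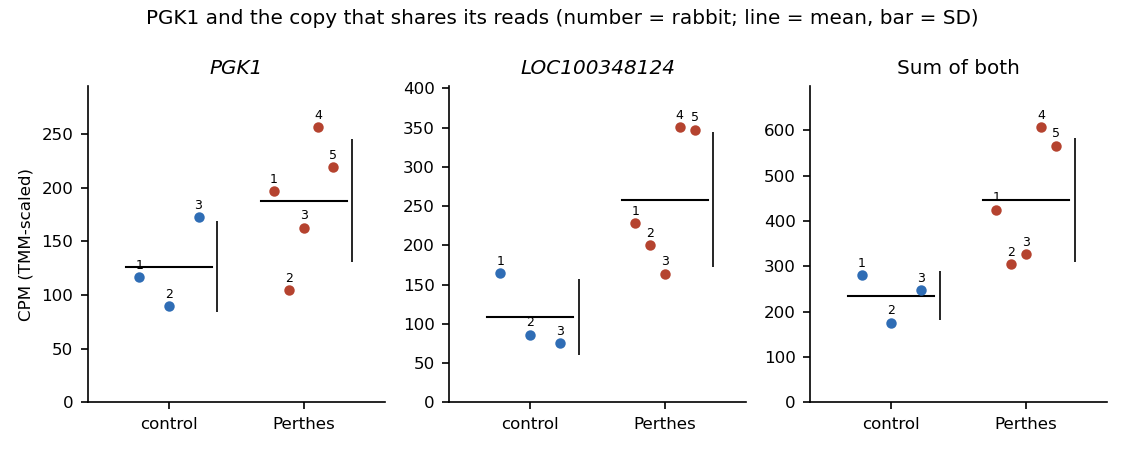
TMM-scaled CPM (vertical axes, from 0) of *PGK1*, of LOC100348124, which shares its reads, and of their sum, in 3 control and 5 Perthes femoral heads (points with rabbit numbers, lines for means, bars for SD). The groups overlap for each gene alone and are apart for the sum, at 176 to 281 CPM in controls and 305 to 607 CPM in Perthes rabbits.

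Pyruvate is then either reduced to lactate or sent to the mitochondrion. *LDHA* (100009107), the lactate dehydrogenase subunit that favours lactate, had 296, 253, 251, 863 and 476 CPM in Perthes rabbits and 235, 156 and 195 CPM in controls. The groups did not overlap, but Perthes rabbits 2 and 3 lay just above control rabbit 1, and rabbit 4 was 3.15 times the median of the other Perthes rabbits. The log2 fold change was 1.13 ± 0.44 (SE, edgeR adjusted p = 0.115), and it was 0.71 without Perthes rabbit 4. The counts of *LDHA* added up in the same way with those of LOC100351519 and LOC100355262, but it kept 80.1% to 84.2% of the sum in every library, and the sum gave a log2 fold change of 1.13 as well.

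*PDK1* (100351323) encodes a kinase that switches off pyruvate dehydrogenase and so holds back the use of pyruvate in the mitochondrion. It was the gene with the smallest difference, with 38.3, 35.2, 30.2, 50.1 and 30.7 CPM in Perthes rabbits and 26.2, 42.5 and 49.4 CPM in controls. The Perthes values spanned nearly the whole range of the controls. Its log2 fold change was -0.09 ± 0.24 (SE, edgeR adjusted p = 0.818), and the sign turned to 0.10 without control rabbit 3.

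Among the targets outside glycolysis, *CA9* (100337777) encodes a carbonic anhydrase on the cell surface that buffers acid and is hardly made in most tissues with enough oxygen. Its level was 12.0, 15.2, 12.8, 81.3 and 35.3 CPM in Perthes rabbits and 3.00, 4.55 and 12.6 CPM in controls. Perthes rabbits 4 and 5 stood well above the rest, while Perthes rabbits 1 and 3 were level with control rabbit 3. It had the largest fitted difference of the 10 genes, a log2 fold change of 2.22 ± 0.79 (SE, edgeR adjusted p = 0.0896). This became 1.48 without Perthes rabbit 4 and 3.05 without control rabbit 3, with adjusted p-values of 0.114 and 0.0629 in edgeR.

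*BNIP3* (100348536), a protein of the outer mitochondrial membrane that marks mitochondria for removal, was at 74.7, 66.8, 73.9, 171 and 104 CPM in Perthes rabbits and at 45.2, 43.1 and 58.6 CPM in controls. No Perthes rabbit reached down to the controls, and the controls differed among themselves by only 1.36-fold. The means were 98.2 ± 43.4 CPM (SD, n = 5) and 49.0 ± 8.42 CPM (SD, n = 3), and the fitted log2 difference was 1.00 ± 0.33 (SE, edgeR adjusted p = 0.0697). Without Perthes rabbit 2 the adjusted p in edgeR was 0.0495 and without Perthes rabbit 4 it was 0.0501. Leaving out control rabbit 1 or control rabbit 2 instead gave an edgeR adjusted p of 0.192 or 0.212.

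The 10 genes did not vary alike among rabbits. Perthes rabbit 4 was the highest of all 8 rabbits in 8 genes, the exceptions being *HK2*, highest in Perthes rabbit 1, and *PFKFB3*, highest in control rabbit 2. Relative to the median of the other 4 Perthes rabbits, rabbit 4 was 5.81 times as high for *CA9*, 2.51 times for *SLC2A1* and 2.31 times for *BNIP3*, but 1.13 times for *HK2* and 1.06 times for *PFKFB3*. The same rabbit had the highest sum of the 8 chondrocyte markers, 142860 CPM, where the other Perthes rabbits had 35221 to 77868 CPM. Among controls, rabbit 3 was the highest for *SLC2A1*, *PGK1*, *PDK1*, *CA9* and *BNIP3*, and it also had the highest chondrocyte sum, 65734 CPM against 46147 and 47785 CPM. None of the 7 tested chondrocyte markers was called between the groups, where 6.21% of all genes were called higher and 8.86% lower. All 7 nevertheless had a higher fitted level in Perthes rabbits, with a median log2 fold change of 1.01 beside 0.82 for the 10 genes. The part of cartilage content in these levels was not tested.

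With Perthes rabbit 4 left out, the ratio of mean CPM between Perthes and control rabbits was 2.80 for *CA9*, 2.01 for *SLC2A1*, 1.74 for *ENO1*, and 1.63 for both *LDHA* and *BNIP3*. Groups that are apart cannot come to overlap when a rabbit is left out, so *ENO1*, *LDHA* and *BNIP3* necessarily stayed apart. The groups still overlapped for the other 7. *BNIP3* ran closest to the average course of the 10 genes over the rabbits, with a mean absolute difference of 0.09 on the log2 CPM scale after centring. *CA9* (0.74) and *PFKFB3* (0.68) had the largest differences, in a measure that also grows with the size of the swing. *CA9*, like the average, was highest in Perthes rabbits 4 and 5 and lowest in control rabbits 1 and 2, with a wider swing.

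**Figure D3:**
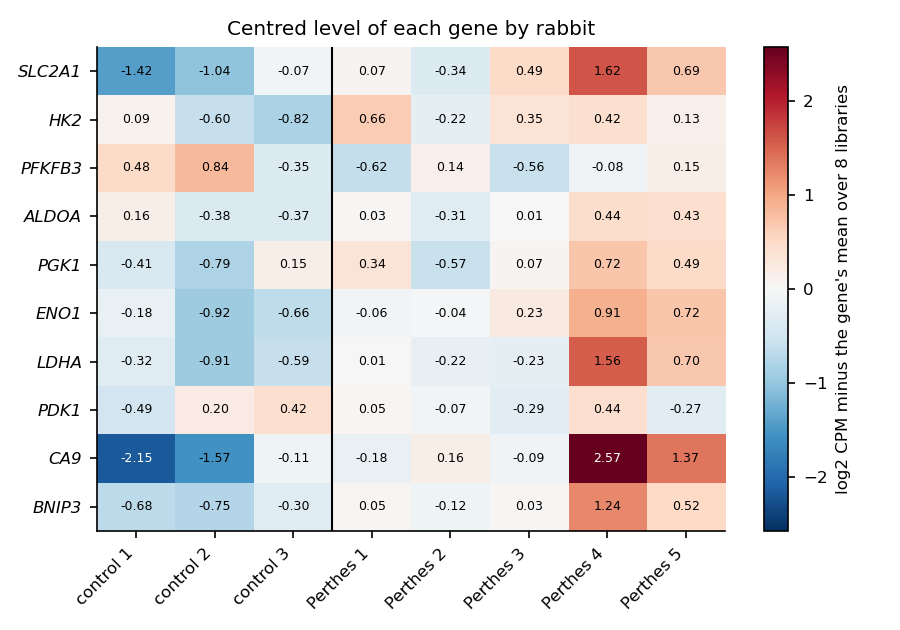
Log2 CPM of each of the 10 genes (rows) in each rabbit (columns), minus the gene's mean over the 8 libraries; red is above and blue below that mean, and the line separates controls from Perthes rabbits. *CA9* spans -2.15 to 2.57, while *PFKFB3* and *PDK1* do not follow the pattern of low controls and high Perthes rabbits 4 and 5.

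Outside the gene lists used here, the tested genes whose centred course was most like the average of the 10 were *CERCAM*, *ECSCR*, *NFKBIZ*, *FOSL2* and *KLHL3*. Their mean absolute difference from it over the 8 libraries was 0.10, 0.11, 0.12, 0.12 and 0.12 on the log2 scale. Like the average, all 5 were highest in Perthes rabbits 4 and 5, except that *NFKBIZ* had rabbit 1 as its second highest. Since they were picked for running close to the average, this likeness follows from the choice.

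Ratios between isozymes within a library do not depend on library scaling, and 9 were compared by an exact two-sided permutation test on log2 ratios of counts. The smallest p that 5 rabbits against 3 allow is 0.0357. *LDHA* over *LDHB*, the subunit that favours pyruvate, had log2 ratios of 0.98, 0.45, 0.63, 2.67 and 1.52 in Perthes rabbits and of -0.25, -0.15 and 0.19 in controls. The Perthes femoral heads were thus tilted further toward the lactate-forming subunit in every rabbit, by a mean log2 difference of 1.32. *HK2* over *HK1*, the hexokinase of resting cells and red cells, had -0.10, -1.26, -0.62, -1.19 and -1.14 in Perthes rabbits and -1.82, -2.03 and -2.20 in controls. This difference was 1.16, and the overlap seen in *HK2* alone was gone.

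The carriers and mitophagy receptors were shifted as well. For *SLC2A1* over *SLC2A3*, the high-affinity carrier of neutrophils and neurons, listed in the table by its description only, the log2 ratios were -2.03, -2.47, -1.74, -2.34 and -1.91 in Perthes rabbits and -5.34, -3.97 and -2.70 in controls. The controls varied far more than the Perthes rabbits, and the mean difference was 1.91, or 1.24 without control rabbit 1 and 2.56 without control rabbit 3. *BNIP3* over *BNIP3L*, which clears mitochondria from maturing red cells, had -0.83, -1.78, -0.55, 0.41 and -0.20 in Perthes rabbits and -2.64, -3.17 and -2.68 in controls, a difference of 2.24. In the opposite direction, *ENO1* over *ENO2*, the enolase of neurons, had 6.19, 6.10, 6.62, 4.82 and 5.52 in Perthes rabbits and 8.92, 7.21 and 6.66 in controls, a difference of -1.75, or -1.09 without control rabbit 1. All 5 of these ratios had groups that did not overlap (exact permutation test, p = 0.0357 each, 0.0643 after Benjamini-Hochberg adjustment over the 9 ratios), so none passed 0.05 after adjustment. Each p was already the smallest that these rabbits allow. With 5 of 9 ratios at that limit, the adjusted p could not be lower, whatever the size of the differences.

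The remaining 4 ratios had overlapping groups. *PFKFB3* over *PFKFB4* differed by 0.81 (exact permutation test, p = 0.107, adjusted 0.161). *ALDOA* over *ALDOC*, *PDK1* over *PDK3* and *CA9* over *CA12* differed by -0.29, -0.04 and 0.32, with p-values of 0.857, 0.893 and 0.929 in exact permutation tests and an adjusted p of 0.929 each. *CA9* over *CA12* had SDs of 1.79 (n = 5) and 3.21 (n = 3), so differences of several fold were within the spread between rabbits.

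**Figure D4:**
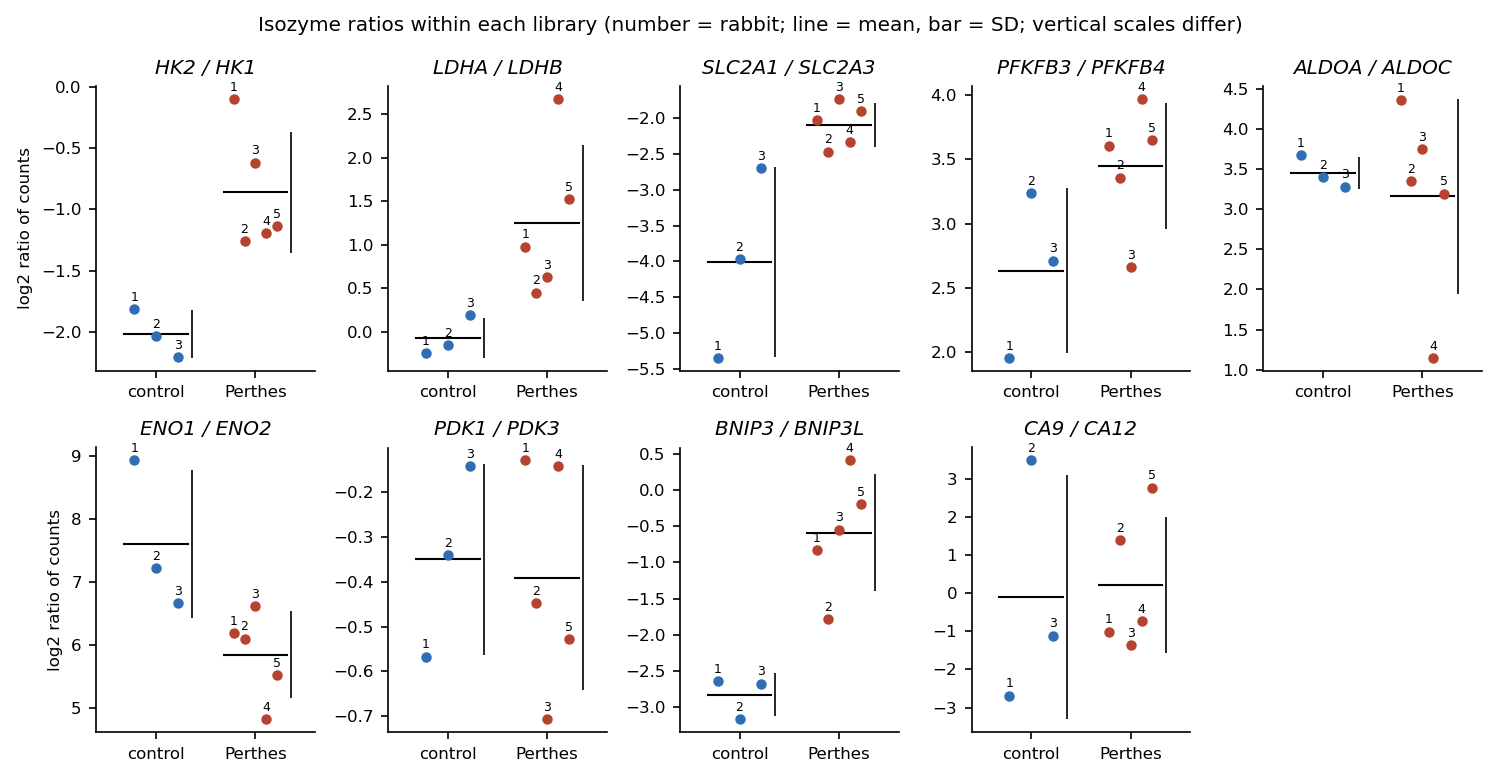
Log2 ratio of counts of each pair of isozymes or related genes within a library (vertical axes, scales differ and do not start at 0) in 3 control and 5 Perthes femoral heads; points carry rabbit numbers, lines are means and bars the SD. The groups are apart for *HK2*/*HK1*, *LDHA*/*LDHB*, *SLC2A1*/*SLC2A3*, *ENO1*/*ENO2* and *BNIP3*/*BNIP3L*.

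The other genes of glycolysis and of glucose and lactate transport, 28 tested of 30 in the list, had a median log2 fold change of 0.22. Of these, 1 was called higher and 5 were called lower in Perthes rabbits, beside 6.21% and 8.86% of all genes. The enolase isozyme *ENO2* rose from 1.36, 2.68 and 4.72 CPM in controls to 9.90, 10.7, 9.03, 50.2 and 27.1 CPM in Perthes rabbits, with rabbits 4 and 5 the highest (log2 fold change 2.87 ± 0.73 SE, edgeR adjusted p = 0.0314, and 2.28 without rabbit 4). *HK3*, a hexokinase of myeloid cells, fell from 358, 110 and 63.5 CPM to 14.4, 43.5, 28.6, 30.6 and 21.1 CPM (log2 fold change -2.68 ± 0.53 SE, edgeR adjusted p = 0.0159), and without control rabbit 1 its log2 fold change was -1.64 (edgeR adjusted p = 0.0598). *BPGM*, which makes the 2,3-bisphosphoglycerate of red cells, fell from 188, 327 and 233 CPM to 13.3, 120, 30.9, 32.4 and 12.8 CPM. Its log2 fold change was -2.57 (edgeR adjusted p = 0.0365), or -3.48 without Perthes rabbit 2. The call of *BPGM* was lost in the other 7 of 8 fits that left out 1 rabbit. Perthes rabbit 2 was the highest of its group for both *HK3* and *BPGM*. It was also the highest for the sum of the red cell markers (2405 CPM) and of the neutrophil markers (1548 CPM).

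The other genes that fell were *SLC16A1*, a lactate and pyruvate carrier, by 1.53 on the log2 scale, and the bifunctional enzymes *PFKFB4* and *PFKFB2*, by 1.42 and 1.35. The next 5 genes were chosen after their values were seen. *PKLR*, the pyruvate kinase of liver and red cells, had 0.203 to 11.9 CPM in Perthes rabbits and 23.5 to 37.3 CPM in controls, without passing the test (log2 fold change -3.07, edgeR adjusted p = 0.0595). The general enzymes *GAPDH*, *TPI1*, *PGAM1* and *PKM* had log2 fold changes of 0.63, 0.66, 0.61 and 0.61, of which none passed (edgeR adjusted p = 0.309, 0.112, 0.184 and 0.141). The markers of red cell precursors, neutrophils and dividing cells were lower in every Perthes rabbit than in any control by their sums, with 175 to 513 CPM against 1183 to 1210 CPM for the 6 cell cycle markers. The part of these cell types in the falls was not tested. Without control rabbit 1 or control rabbit 2, 0 genes of the list were called in either direction. Calls over all genes moved as well, from 951 higher and 1356 lower with all rabbits to 73 and 184 without control rabbit 1. They were 0 and 0 without control rabbit 2, 941 and 1628 without Perthes rabbit 2, 385 and 646 without Perthes rabbit 3, and 351 and 550 without Perthes rabbit 5. In the list, the numbers called higher and lower were 2 and 3 without Perthes rabbit 1, 2 and 8 without rabbit 2, 1 and 2 without rabbit 3, 2 and 4 without rabbit 4, and 0 and 2 without rabbit 5. They were 1 and 3 without control rabbit 3.

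Pyruvate entry into the mitochondrion and its use there were covered by 13 genes, all tested, with a median log2 fold change of 0.07. None was called by edgeR, and at an unadjusted p below 0.05 there was 1 in each direction, beside 15.3% of all genes higher and 16.6% lower. DESeq2 called 1 higher and 1 lower, beside 9.74% and 11.0% of all genes. Without Perthes rabbit 2, edgeR also called 1 in each direction, beside 941 higher and 1628 lower of all 15232 genes tested. Without Perthes rabbit 4 it called 1 higher and 0 lower, beside 1267 and 1423 of all 15161 genes tested. *PDHA1*, a subunit of pyruvate dehydrogenase, had 116, 73.5, 100, 65.7 and 109 CPM in Perthes rabbits and 54.5, 56.1 and 56.8 CPM in controls, groups that did not overlap (log2 fold change 0.74 ± 0.22 SE, edgeR adjusted p = 0.0501). *PC*, the pyruvate carboxylase that refills the citric acid cycle, had 2.23 to 10.7 CPM against 12.5 to 17.1 CPM (log2 fold change -1.41, edgeR adjusted p = 0.0527). *PDK4*, another kinase of pyruvate dehydrogenase, followed with a log2 fold change of 0.88 (edgeR adjusted p = 0.263).

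The list of 36 other targets of the hypoxia-inducible factors, all tested, had a median log2 fold change of 0.98. Of these, 9 were called higher and 4 lower in Perthes rabbits, beside 6.21% and 8.86% of all genes. The 6 called higher with the largest log2 fold changes were *EGLN3*, *PLIN2*, *ADM*, *HMOX1*, *VLDLR* and *BHLHE40*. *EGLN3*, a prolyl hydroxylase that tags the factors for degradation and is itself induced by them, had 31.1, 16.3, 18.9, 166 and 88.8 CPM in Perthes rabbits and 5.68, 4.69 and 8.91 CPM in controls (log2 fold change 3.32 ± 0.86 SE, edgeR adjusted p = 0.0338, and 2.59 without Perthes rabbit 4). *ADM*, the vasodilator peptide adrenomedullin, had 11.4, 13.1, 11.4, 34.9 and 27.7 CPM against 1.43, 3.49 and 6.15 CPM (log2 fold change 2.41 ± 0.58 SE, edgeR adjusted p = 0.0269, and 3.00 without control rabbit 3). Both were highest in Perthes rabbits 4 and 5, as were *CA9* and *LDHA*.

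A different order was seen for the lipid droplet protein *PLIN2* and the heme oxygenase *HMOX1*, which are abundant in macrophages loaded with lipid or iron. *PLIN2* was at 329, 94.5, 169, 294 and 445 CPM in Perthes rabbits and 52.4, 41.1 and 45.5 CPM in controls (log2 fold change 2.52, edgeR adjusted p = 0.0144). *HMOX1* was at 263, 82.4, 230, 269 and 468 CPM against 57.3, 50.4 and 40.1 CPM (log2 fold change 2.41, edgeR adjusted p = 0.0165). In both, Perthes rabbit 5 was the highest and rabbit 2 the lowest of its group. Of 8 macrophage markers, 5 were called higher and 0 lower, beside 6.21% and 8.86% of all genes, with rabbit 4 the lowest Perthes rabbit in their sum (836 CPM), and their part in these rises was not tested. The lipoprotein receptor *VLDLR* and the clock-related repressor *BHLHE40* rose by 1.48 and 1.43 on the log2 scale. The remaining 3, named because they complete the count, were *ANKRD37*, *P4HA2* and *EGLN1*, with log2 fold changes of 1.01, 0.98 and 0.67.

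Genes of this list that fell were *BNIP3L*, *MXI1*, *CITED2* and the transferrin receptor *TFRC*, by 1.28, 1.16, 1.14 and 0.67 on the log2 scale. *BNIP3L* had 133, 230, 108, 129 and 119 CPM in Perthes rabbits and 281, 388 and 375 CPM in controls (SE 0.26, edgeR adjusted p = 0.0173). *BNIP3L* and *TFRC* are used heavily by red cell precursors, whose 10 markers all had groups that did not overlap, lower in Perthes rabbits, where 13.9% of all genes did so, although 1 was called lower, as were 8.86% of all genes. Their part in these falls was not tested. *VEGFA*, the angiogenic target, also chosen after its values were seen, had 69.9, 65.6, 66.1, 354 and 225 CPM in Perthes rabbits and 47.7, 77.5 and 91.5 CPM in controls, so that 3 Perthes rabbits lay within the control range (log2 fold change 1.11, edgeR adjusted p = 0.259). Without control rabbit 2 no gene of the list was called in either direction, without control rabbit 1 the counts were 0 higher and 1 lower, and without Perthes rabbit 5 they were 2 and 1. They were 5 and 2 without Perthes rabbit 3, and without control rabbit 3 the number called lower was 2. Calls over all genes, 951 higher and 1356 lower with all rabbits, were 0 and 0 without control rabbit 2 and 73 and 184 without control rabbit 1. They were 351 and 550 without Perthes rabbit 5, 385 and 646 without Perthes rabbit 3, and 695 and 1183 without control rabbit 3.

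*HIF1A*, the oxygen-regulated subunit of the factor, had 544, 303, 234, 532 and 411 CPM in Perthes rabbits and 89.0, 144 and 234 CPM in controls. It was called higher, with a log2 fold change of 1.38 ± 0.39 (SE, edgeR adjusted p = 0.0455), although Perthes rabbit 3 was level with control rabbit 3. The call was lost in 6 of 8 fits that left out 1 rabbit, those without Perthes rabbit 1, 3, 4 or 5 or control rabbit 1 or 2. It was also lost under scaling by library totals (log2 fold change 1.30) and under the replicate block (1.22). The block fit called 0 of all genes, and Perthes rabbits 4 and 5, which have no control of the same number, do not count in its difference. *HIF1A* was highest in Perthes rabbit 1, as were *HK2* and *EGLN1*, whereas *CA9* was lowest of its group in that rabbit.

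**Figure D5:**
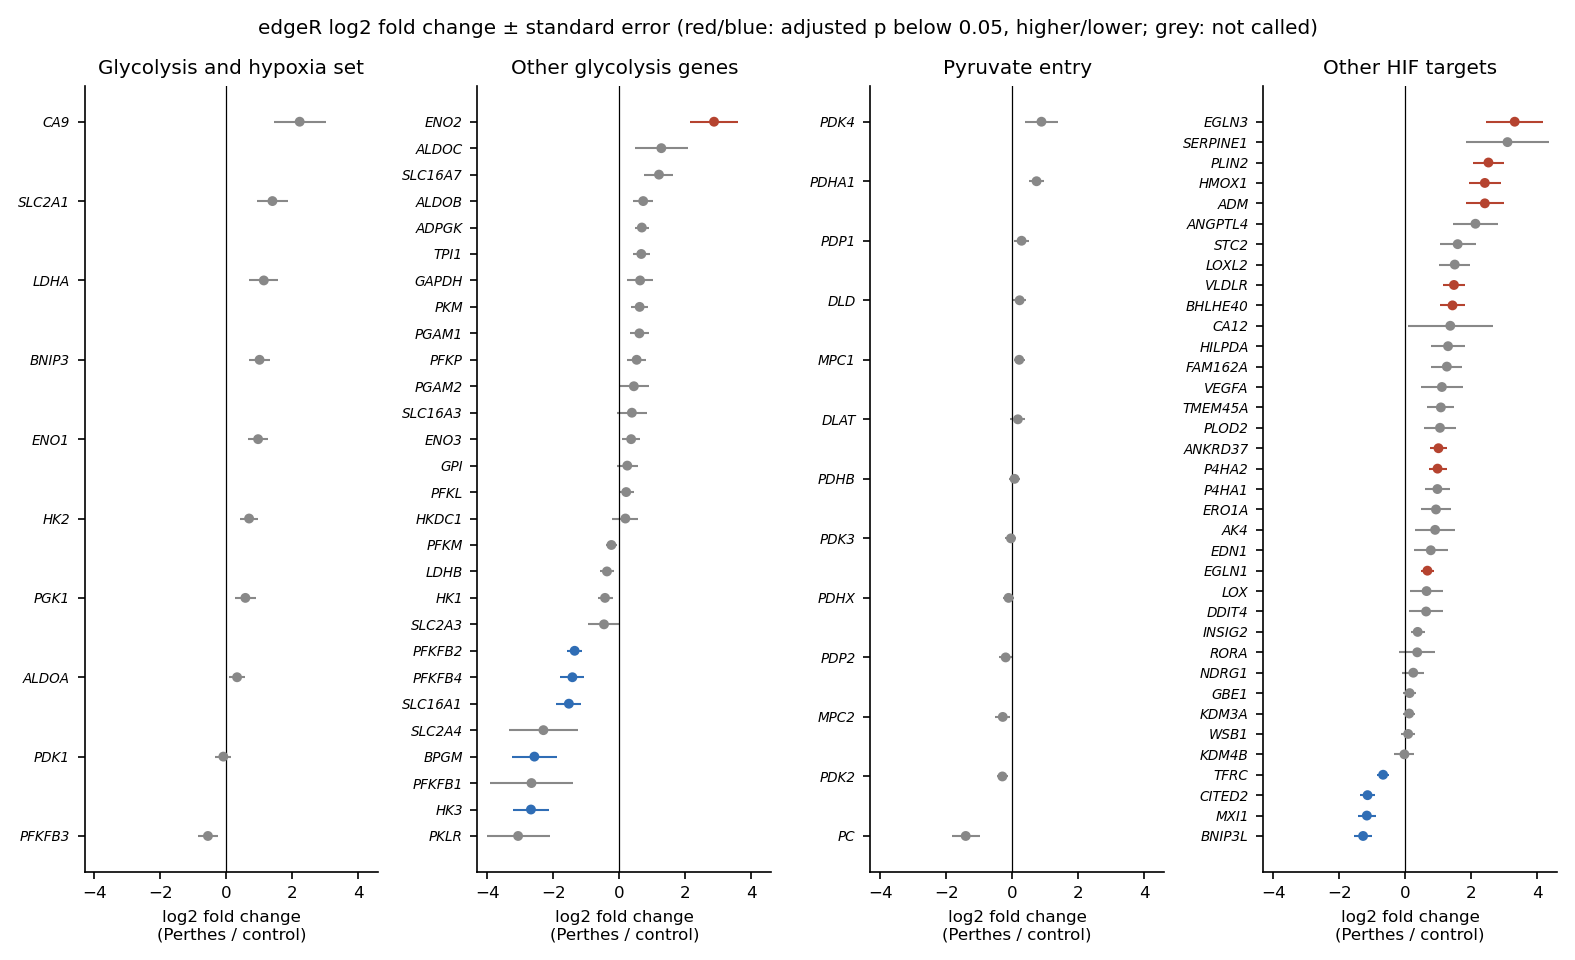
Log2 fold change of Perthes over control from edgeR (horizontal axis, points) with its standard error (bars) for the 10 genes and for the tested genes of the 3 other lists, ordered by size; red and blue points have an adjusted p below 0.05. None of the 10 genes is called, while 9 of the 36 other targets are called higher and 4 lower, and *ENO2* is the only other glycolysis gene called higher.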

How the data were processed

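Total RNA-seq libraries of the femoral heads of 5 Perthes and 3 control rabbits were used. Read pairs of 150 bp were mapped by HISAT2 2.0.4, and the processing notes also name RSEM 1.1.17 and HTSeq 1.99.2. The values the authors deposited are expected counts per gene, unnormalized, of which up to 10.7% per library are not whole. They were rounded. Another 8 columns of per-sample values repeat those used and were left out, and the table of small RNA counts was not used here. The control coded 3 was taken as control rabbit 3, although its title gives another number.

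Genes were filtered by filterByExpr, scaled by TMM and tested in edgeR 4.0.16 (R 4.3.3) with the quasi-likelihood F-test and Benjamini-Hochberg adjustment over 15305 genes, and a gene was called at an adjusted p below 0.05. Standard errors are the log2 fold change divided by the square root of F. Isozyme ratios used a pseudocount of 0.5 and all 56 divisions of the rabbits (scipy 1.17.1). The biological coefficient of variation between rabbits was 0.361, at 26757087 to 29461482 counts per library. The edgeR fit was tested on simulated counts.

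All 10 genes were named, with called genes of the other lists, at most 6 in each direction by size (otherwise the 3 with the lowest p), the second gene of each ratio, *HIF1A* and the 5 genes outside the lists with the most similar course. The genes and lists were chosen with earlier results of these data known. In the pathway lists, 1 gene was matched by identifier through RefSeq and 2 by the description in the table. Alternatives were DESeq2 1.42.0, its size factors or library totals as scaling, no filter or at least 10 counts in every library, a log2 fold change beyond 1, the replicate number as a block, a pseudocount of 2, each rabbit left out in turn and, chosen after seeing the data, sums over gene copies that share reads.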

Additional observations from a re-analysis of the deposited data

How the results depend on the processing

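The same-numbered rabbits of both groups had correlations of deviations from their group means of -0.317, 0.161 and -0.238, so the replicate numbers were not taken as pairs. With the replicate number as a block, 0 other glycolysis genes and 0 other targets of the hypoxia-inducible factors were called in either direction, as were 0 genes in the whole table. Perthes rabbits 4 and 5 have no control of the same number, so the block fit compares only rabbits 1, 2 and 3 of each group. Its lack of calls therefore says little about any single list. DESeq2 called 4 of the 10 genes higher and 0 lower, and 3 other glycolysis genes higher and 6 lower. It called 14 other targets higher and 4 lower, and 1 gene of pyruvate entry in each direction. Over all genes it called 9.74% higher and 11.0% lower. For pyruvate entry, size factors of DESeq2 within edgeR and a minimum of 10 counts in every library also gave 1 in each direction, and library totals gave 1 lower. Over all genes these 3 settings called 969, 832 and 678 higher and 1365, 1260 and 1705 lower, of 15305, 13408 and 15305 tested. With 1 rabbit left out at a time, the number called higher ranged from 0 to 2 of the 10 genes, from 0 to 2 other glycolysis genes, from 0 to 1 of pyruvate entry and from 0 to 12 other targets. The number called lower ranged from 0 to 8, from 0 to 1 and from 0 to 4 in these last 3 lists. Without control rabbit 2, 0 of all genes were called. The log2 fold change of *PDK1* was 0.10 without control rabbit 3, that of *SLC2A3* 0.018 without control rabbit 1 (range -0.997 to 0.018), and that of *ALDOC* -0.26 with the block. That of *PDK3* was 0.0044, 0.032 and 0.043 without Perthes rabbit 1, control rabbit 2 and control rabbit 3 (range -0.18 to 0.043). Of 142 alternative values for the 10 genes, 1 changed sign and 6 passed the threshold that the reported value had missed. Leaving out 1 rabbit gave *CA9* over *CA12* differences from -0.97 to 2.12 (-0.32 without Perthes rabbit 5, -0.97 and -0.19 without control rabbits 1 and 3). Those of *ALDOA* over *ALDOC* ranged from -0.59 to 0.21, and those of *PDK1* over *PDK3* from -0.15 to 0.063 (0.038 without Perthes rabbit 3). These ratios had no stable direction, while *PFKFB3* over *PFKFB4* kept its own, at 0.47 to 1.12. The 5 ratios with separated groups could not change direction when a rabbit was left out, so this check says nothing about them. The cause of these changes was not tested.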
